A study of Mus musculus with 4 samples.

Results

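Macrophages are among the first blood cells to settle in the fetal liver, where they sit at the centre of the islands in which red cells mature, take up the nuclei that erythroblasts expel and later become Kupffer cells, the resident macrophages of the liver. Their growth and survival depend on signals through the receptor CSF1R, the transcription factor PU.1 drives many of their genes, and they are known for scavenger receptors and for making C1q, the recognition protein of the classical complement pathway. Here 10 genes of these cells, out of 22911 genes matched to a probe, were followed in fetal livers. The genes were chosen by name, with earlier results of these data known, and no measured value enters the rule. They comprise the lineage receptors Csf1r and Adgre1, the lysosomal protein gene Cd68, the C1q chains C1qa, C1qb and C1qc, the uptake receptors Timd4, Marco and Mrc1, and the Kupffer cell lectin gene Clec4f.

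The livers came from fetuses of C57BL/6J dams fed during gestation either a control diet (CD), with 4.3% of energy as fat, or a high-fat diet (HFD), with 60%, and were taken in mid-gestation. There were 2 single-color arrays for each diet, labeled replicate 1 and replicate 2, and no sample carried a transgene or a drug. The labels give the sex as female without saying whether the dam or the fetus is meant, and the number of fetuses or dams behind an array is not given in the sources used here. P-values therefore measure only the spread between these arrays, and the number of arrays limits the precision. In limma, the main test used below, the spread of each probe is also drawn toward that of all tested probes. On these arrays a fluorescent copy of the RNA is bound by printed probes, and brighter spots mean more of a transcript. Whole liver was measured, so fewer macrophages and less of a transcript per macrophage cannot be told apart. In what follows, a level is the log2 brightness of a probe minus the 75th percentile of its array, and levels of different probes are not compared with each other.

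The tissue carried the marks of fetal liver, since all 10 hepatoblast markers and all 9 erythroid markers lay well above background on the 4 arrays. All 10 macrophage genes did so as well by their brightest probe. Of their 13 probes, 12 were well above background on every array, the exception being the dim probe of Adgre1, and all 13 passed the filter on dim probes. Most markers of trophoblast and decidua, which are not liver cells, differed between the groups. For 9 of the 12 with a probe the HFD arrays lay below the CD arrays without overlap, where 10.1% of all genes tested did so. The 12 were counted before the filters and the 10.1% after them, so the sets are unlike. Of the 9, Prl7a1 was well above background on 1 array and Psg17 on 3. The median log2 difference over the 12 was -3.33. The groups overlapped for Prl8a2 (log2 fold change 0.06, standard error 0.53) and for Syna, which was well above background on no array. They also overlapped for Gcm1, a trophoblast transcription factor gene. Gcm1 was higher in mean in the HFD group (log2 fold change 0.55, standard error 0.49) and made up much of the summed signal of the list. Without Gcm1, a choice made after its values were seen, the sum in units of the 75th percentile of each array was 15.6 in CD replicate 1, 53.6 in CD replicate 2, 4.60 in HFD replicate 1 and 1.79 in HFD replicate 2, and with it the sums were 65.8, 73.0, 47.9 and 50.3. The filters kept 5 of the 12 for testing and removed genes with some of the widest gaps, such as Tpbpa, a spongiotrophoblast gene, at levels of 3.01 and 4.80 for CD and 1.00 and -1.01 for HFD. Of the 5, Psg17, a pregnancy-specific glycoprotein gene (log2 fold change -3.05, standard error 0.68), and Pappa2, a protease gene (-1.16, standard error 0.26), had an unadjusted limma p under 0.05. The part of such tissue in the values below was not tested.

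The question put to these genes was whether the fetal liver of HFD-fed dams held more or less macrophage transcript than that of CD-fed dams. None of the 10 genes passed a test for a difference between the diets with all 4 arrays. For Mrc1 and C1qa the difference between the diets was nevertheless wider than the gap between the arrays of either diet. The log2 fold changes, HFD minus CD, ran from -0.24 for Cd68 to 0.40 for Marco, with a median of 0.07 beside a median of 0.04 over all 18205 genes tested. With limma, 0 of 10 genes had an unadjusted p under 0.05, where 2.84% of all genes did, and the p-values lay between 0.121 and 0.903. Each adjusted p was 1.00. The methods' t-test also placed 0 of the 10 under 0.05, where 6.27% of all genes fell, or 3.08% with Welch's correction. The count was likewise 0 with quantile normalization and with normexp background correction, beside 3.16% and 2.11% of all genes. In mean, 7 of the 10 were higher in the HFD group, beside 57.6% of all genes, and 5 of the 10 with quantile normalization. The 95% intervals of all 10 differences lay within 2-fold either way, with outer bounds of 0.522-fold and 1.93-fold, so that differences smaller than this were not resolved with 2 arrays per group.

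**Figure D1:**
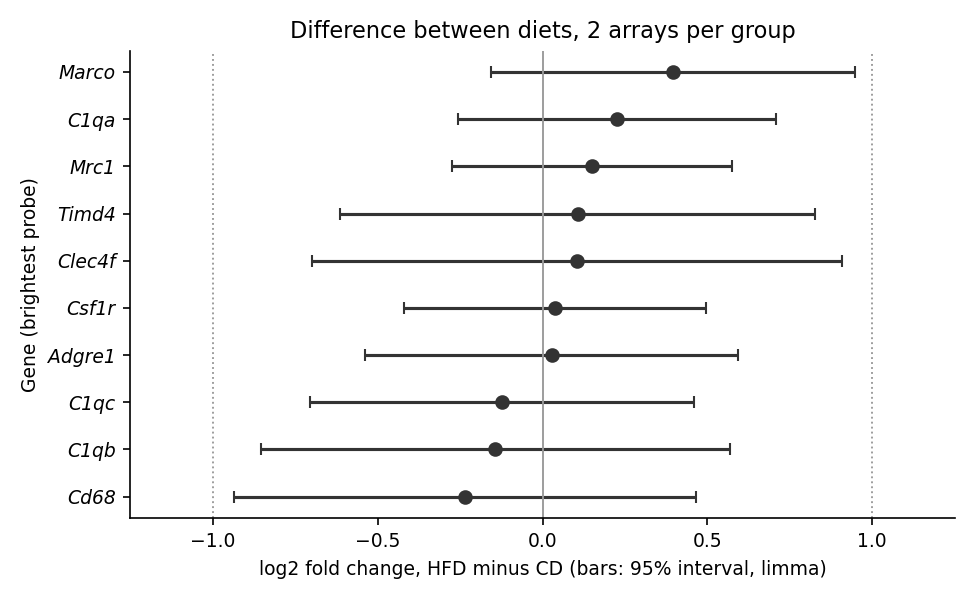
Log2 fold change (HFD minus CD) of the brightest probe of each of the 10 macrophage genes, with 2 arrays per group. Points are the estimates, bars the 95% intervals from limma, and dotted lines mark 2-fold. Every interval crosses 0 and none reaches a dotted line.

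Csf1r encodes the receptor for the growth factors CSF1 and IL-34. Its brightest probe had intensities of 16066 and 12207 in CD and 16084 and 14977 in HFD, which gave levels of 3.91 and 4.12 for CD and 4.05 and 4.04 for HFD. Both HFD arrays thus lay between the CD arrays, and the log2 fold change was 0.04 (standard error 0.17, 95% interval -0.42 to 0.49). This estimate had the opposite sign with quantile normalization (-0.04). A dimmer second probe of Csf1r stood at -0.53 and -0.36 for CD and at -0.56 and -0.64 for HFD. By that probe both HFD arrays were below both CD arrays, with a log2 fold change of -0.16 (standard error 0.17), so the probes of this gene differed in direction and neither passed the test.

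Adgre1 encodes the surface antigen by which mouse macrophages are usually stained. Its levels were 1.81 and 2.23 for CD and 2.09 and 2.00 for HFD, with intensities from 3304 to 4131. The HFD arrays again fell between the CD arrays, and the log2 fold change was 0.03 (standard error 0.21), the smallest of the 10. It was -0.01 with quantile normalization. Cd68 encodes a heavily glycosylated protein of the endosomal and lysosomal membrane. Its brightest probe had levels of 1.55 and 2.18 for CD and 1.67 and 1.59 for HFD, and its other probe had -0.66 and 0.17 for CD and -0.46 and -0.58 for HFD. On both probes CD replicate 2 stood above the other 3 arrays. The log2 fold changes were -0.24 and -0.27 (standard errors 0.26 and 0.32), so that the probes of Cd68 gave like estimates and neither passed the test.

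C1qa, C1qb and C1qc encode the chains that assemble together into C1q, and they lie next to each other on mouse chromosome 4, in the order C1qb, C1qc and C1qa between Ephb2 and Epha8 (RefSeq, GRCm38.p6). C1qa had levels of 0.64 and 0.42 for CD and 0.83 and 0.68 for HFD. Both HFD arrays were above both CD arrays, with a log2 fold change of 0.23 (standard error 0.18, 95% interval -0.26 to 0.71). C1qb had levels of 0.70 and 1.34 for CD and 0.95 and 0.80 for HFD. C1qc had levels of 2.79 and 3.24 for CD and 2.92 and 2.87 for HFD. For both of these chains the HFD arrays lay between the CD arrays, and the log2 fold changes were -0.14 for C1qb (standard error 0.27) and -0.12 for C1qc (standard error 0.22). C1qa was thus the only chain that was lower on CD replicate 2 than on CD replicate 1. Its difference between the CD arrays was -0.22, against 0.63 for C1qb and 0.46 for C1qc, so that C1qb relative to C1qa differed by 0.86 between these arrays and C1qc relative to C1qb by -0.18.

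Timd4, Marco and Mrc1 encode receptors by which macrophages take up dead cells and other particles. TIMD4 binds phosphatidylserine on dying cells. Timd4 had levels of -1.20 and -0.54 for CD and -0.78 and -0.74 for HFD, with the HFD arrays in between and a log2 fold change of 0.11 (standard error 0.27). MARCO is a class A scavenger receptor with a collagen-like stalk. Marco had intensities of 19371 and 16835 in CD and 26090 and 25264 in HFD, and levels of 4.18 and 4.58 for CD and 4.75 and 4.80 for HFD. Both HFD arrays were above both CD arrays. The log2 fold change of 0.40 (standard error 0.21, limma adjusted p = 1.00), or 1.32-fold with an interval from 0.898 to 1.93, was the largest of the 10, and it did not pass the test. MRC1 is the mannose receptor, CD206. Mrc1 had levels of 1.71 and 1.71 for CD and 1.82 and 1.90 for HFD, which again put both HFD arrays above both CD arrays, at a log2 fold change of 0.15 (standard error 0.16, 95% interval -0.28 to 0.57).

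Clec4f encodes a C-type lectin that in the mouse is found on Kupffer cells. Its levels were -1.55 and -0.78 for CD and -1.11 and -1.02 for HFD, and its intensities lay between 365 and 450. The CD arrays were further apart for Clec4f than for any other gene of the 10, and both HFD arrays fell between them. The log2 fold change was 0.10 (standard error 0.30).

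In all, both HFD arrays lay above both CD arrays for 3 of the 10 genes (Marco, C1qa and Mrc1), an arrangement found for 23.0% of all genes tested, and below them for 0 of 10, where the share of all genes was 10.1%. The count of 3 is near that background. C1qa overlapped under quantile normalization and under normexp background correction, while Marco and Mrc1 stayed apart in both. With 2 arrays a group, the smallest p that exact permutation can reach is 0.333, the value of each of these 3 genes.

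The order of the arrays was shared by most of the genes. CD replicate 1 had the lowest level for 9 of 10 genes and CD replicate 2 the highest for 7 of 10, with both HFD arrays in between for these 7. Over all genes tested, both HFD arrays lay between the CD arrays for 39.8%. The median difference between CD replicate 2 and CD replicate 1 was 0.44 for the macrophage genes, with 9 of 10 higher on replicate 2, beside a median of 0.06 and 55.5% of all genes. The HFD arrays were closer to each other, with a median absolute difference of 0.08 over the 10 genes and SDs between 0.0064 and 0.11, where the SDs within CD ran from 0.0049 for Mrc1 to 0.55 for Clec4f. For 8 of the 10 genes the CD arrays differed from each other by more than the diets did, which was so for 71.7% of all genes.

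**Figure D2:**
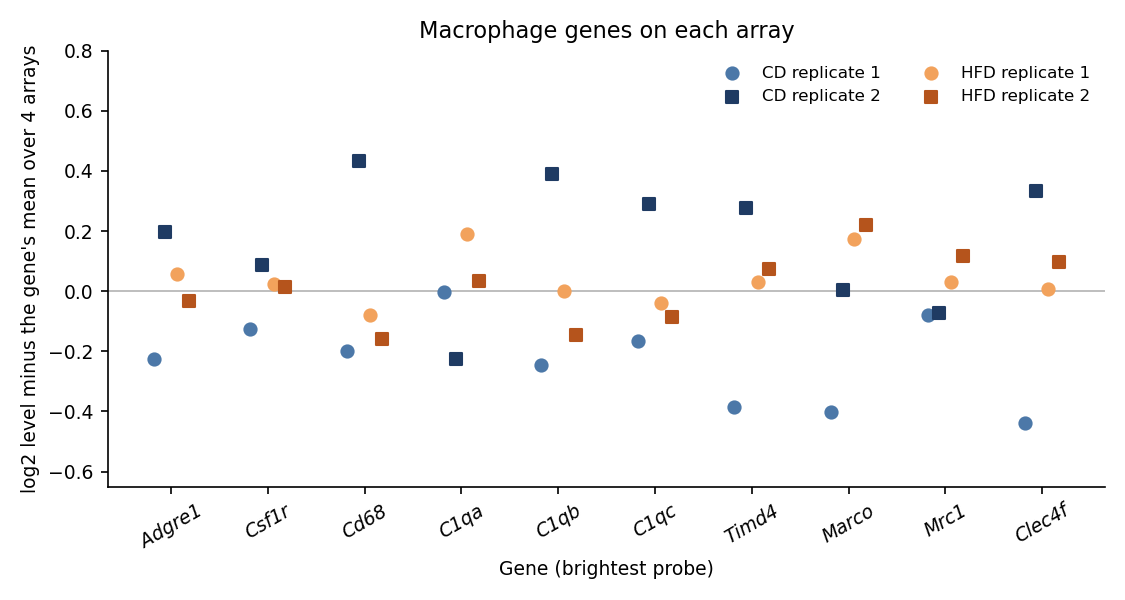
Level of each macrophage gene on the 4 arrays, as log2 level of the brightest probe minus the mean of that gene over the arrays. CD replicate 1 is lowest for 9 of 10 genes, CD replicate 2 is highest for 7 of 10, and the HFD arrays lie above both CD arrays for C1qa, Marco and Mrc1.

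The difference between the CD arrays also depended on brightness and on scaling. With all genes cut by level into 4 equal bins, the median difference between CD replicate 2 and CD replicate 1 was 0.18 in the brightest bin, which held 3 of the 10, and 0.08 in the next, which held 5 of them. In the lower bins it was -0.08 in both, and the 2 macrophage genes of these bins, Timd4 and Clec4f, differed by 0.66 and 0.77, the widest gaps of the 10. With quantile normalization 8 of 10 macrophage genes were higher on CD replicate 2, by a median of 0.33, and both HFD arrays lay between the CD arrays for 4 genes instead of 7. By that scaling 2 genes, Csf1r and C1qc, lay lower on the HFD arrays without overlap, beside 13.2% of all genes.

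Because the CD arrays differed in this way, the direction of the diet difference rested on which of them was kept. Without CD replicate 1, 7 of the 10 genes were lower in HFD and the median log2 fold change was -0.20, beside 0.02 for all genes. Cd68 (-0.55), C1qb (-0.46) and C1qc (-0.35) then had an unadjusted limma p under 0.05 and were lower, as were 7.73% of all genes. Without CD replicate 2, all 10 genes were higher in HFD and the median was 0.16, beside 0.09 for all genes. Marco (0.60), Clec4f (0.49) and Timd4 (0.44) then had an unadjusted limma p under 0.05 and were higher, as were 7.05% of all genes. In these fits the single CD array is assumed to vary like the HFD arrays. Leaving out an HFD array moved the median to between 0.07 and 0.08 and left 0 of the 10 under 0.05, beside 2.19% of all genes without HFD replicate 1 and 1.88% without HFD replicate 2. C1qa, Marco and Mrc1 were higher in the HFD group whichever array was left out. This had to follow, since both HFD arrays lay above both CD arrays for these genes, and it is no further support. Adgre1 and Csf1r, whose estimates lay closest to 0, were lower without CD replicate 1 and higher without CD replicate 2, and so were Timd4, Clec4f, Cd68, C1qb and C1qc. Their change of sign likewise had to follow, since both HFD arrays lay between the CD arrays.

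**Figure D3:**
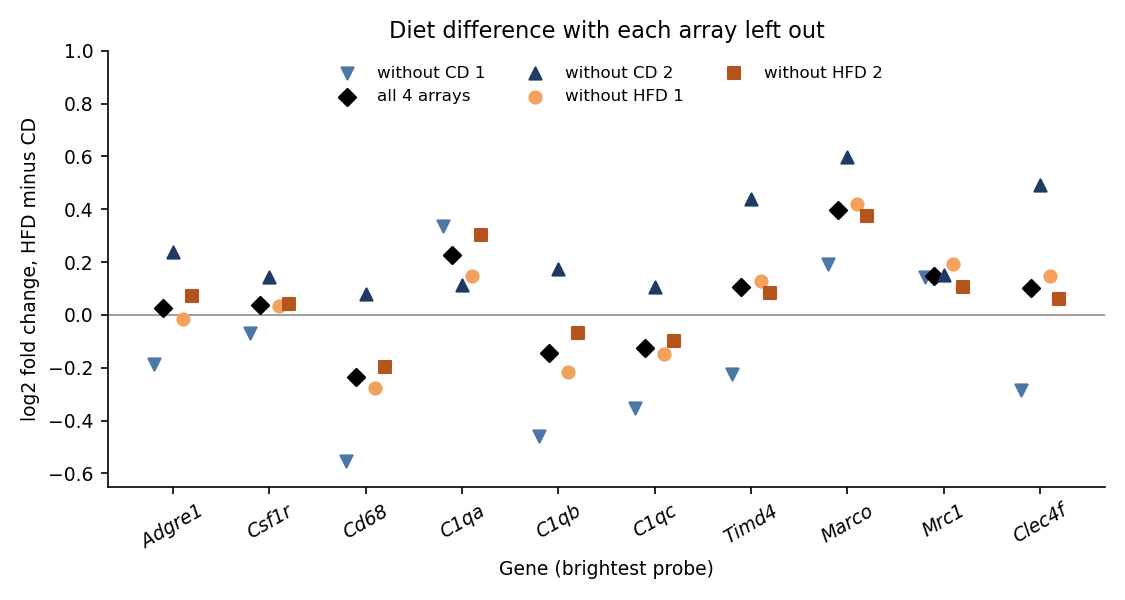
Log2 fold change (HFD minus CD) of each macrophage gene with all 4 arrays and with each array left out in turn. For 7 of the 10 genes the points without CD replicate 1 and without CD replicate 2 lie on opposite sides of 0.

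The sequences upstream of these genes were searched for letters that PU.1 binds. RefSeq promoter windows (GRCm38.p6) were used for 7 of the 10 genes, and none was used for Csf1r, Adgre1 and C1qa. The search of the 10 genes left out the chromosome that carries Csf1r, which the 32851 windows of the comparison kept. The 250 bases before the transcript start held GAGGAA, on either strand, in 5 of these 7 windows (Cd68, C1qb, C1qc, Marco and Mrc1), beside 23.3% of all 32851 windows. Mrc1 held it 3 times and the other genes once, and Timd4 and Clec4f did not hold it. The overlapping letters AGGAAG were found in 4 of 7 windows, beside 29.5% of all, the longer GAGGAAGT in 1 of 7, beside 2.44%, and the E-box CACGTG of lysosomal genes in 0 of 7, beside 6.02%. A match is a description of the letters and not a measured site. The windows of Marco and Mrc1 are printed because both HFD arrays were above both CD arrays for these genes under each of the 3 scalings, and those of C1qb and C1qc because these neighboring genes had the same order of arrays. They are written on the strand of the gene, with GAGGAA or its complement in capitals.
Marco, chr1:120505025-120505274, minus strand: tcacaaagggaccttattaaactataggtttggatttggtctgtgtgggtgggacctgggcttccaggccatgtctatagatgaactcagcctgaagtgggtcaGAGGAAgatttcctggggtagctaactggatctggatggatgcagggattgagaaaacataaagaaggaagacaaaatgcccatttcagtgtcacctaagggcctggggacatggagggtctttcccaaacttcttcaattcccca
Mrc1, chr2:14229164-14229413, plus strand: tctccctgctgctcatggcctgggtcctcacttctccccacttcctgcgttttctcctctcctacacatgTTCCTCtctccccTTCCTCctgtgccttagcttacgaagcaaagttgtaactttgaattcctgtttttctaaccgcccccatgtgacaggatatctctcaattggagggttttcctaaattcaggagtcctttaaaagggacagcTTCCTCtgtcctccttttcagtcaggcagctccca
C1qb, chr4:136886201-136886450, minus strand: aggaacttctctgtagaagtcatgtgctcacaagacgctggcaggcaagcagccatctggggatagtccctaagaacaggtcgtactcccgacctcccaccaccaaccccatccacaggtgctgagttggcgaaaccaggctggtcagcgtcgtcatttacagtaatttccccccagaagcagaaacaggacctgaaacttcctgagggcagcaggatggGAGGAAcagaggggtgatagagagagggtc
C1qc, chr4:136892915-136893164, minus strand: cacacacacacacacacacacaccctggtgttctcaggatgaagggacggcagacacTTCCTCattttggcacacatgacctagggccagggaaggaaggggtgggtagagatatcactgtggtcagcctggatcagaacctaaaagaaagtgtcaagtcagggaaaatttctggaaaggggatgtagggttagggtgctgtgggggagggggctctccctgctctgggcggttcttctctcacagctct
In C1qb the match began 30 bases before the transcript start and in Mrc1 the nearest began 35 bases before it, while in Marco it began 146 bases and in C1qc 193 bases before it.

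Around these 10 genes, 8 lists of genes from pathways in which macrophages take part held 89 names, of which 84 could be tested. Whole liver was measured, so their signal need not come from macrophages. With limma, 0 of the 84 had an unadjusted p under 0.05, and their median log2 fold change was 0.05. Both HFD arrays were above both CD arrays for 17 of them (20.2%) and below for 5 (5.95%), beside 23.0% and 10.1% of all genes.
Among the ligands, adaptors and transcription factors around CSF1R, the median over 12 genes was -0.01. Tyrobp, an adaptor of many myeloid receptors, had a log2 fold change of -0.19, and Csf2ra, a receptor chain for GM-CSF, one of -0.03. Of 9 genes of Kupffer cell identity and iron recycling that were tested, 8 were higher in mean in the HFD group, beside 57.6% of all genes, and the median was 0.13. That median was 0.05 with quantile normalization, -0.10 without CD replicate 1 and 0.40 without CD replicate 2. Hmox1, which breaks down heme, had levels of 4.14 and 4.39 for CD and 4.62 and 4.73 for HFD, with a log2 fold change of 0.41 (standard error 0.18). Cd5l, a secreted protein of tissue macrophages, had a log2 fold change of 0.15. Both HFD arrays lay above both CD arrays for 3 of the 9 genes, beside 23.0% of all genes. These were Hmox1, Spic (0.48), a transcription factor of iron-recycling macrophages, and Cd163 (0.40), the receptor for hemoglobin bound to haptoglobin. Spic and Cd163 were named after their values were seen. Over the 9 genes the log2 fold changes ran from -0.05 to 0.48. Cd163 was well above background on 1 array only. None of the 9 genes passed the test with all 4 arrays at the main setting. With normexp background correction 2 of the 9, Hmox1 among them, had an unadjusted limma p under 0.05, beside 2.11% of all genes. Vsig4, a complement receptor gene of Kupffer cells, was well above background on no array and was left out as too dim.

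Uptake receptors and bridging molecules had a median of 0.03 over 13 genes, with Mfge8 at 0.03 and Axl at 0.24. Axl, a receptor kinase for the clearance of dead cells, was lower on CD replicate 2 (3.19) than on the other 3 arrays (3.83 to 4.12). Lysosomal genes had a median of 0.05 over 13, with log2 fold changes of 0.14 for the protease gene Ctsb and 0.04 for Lamp1. Pan-myeloid genes had a median of -0.00 over 12, with Fcer1g at -0.11 and Coro1a at 0.02. The complement partners of C1q had a median of 0.06 over 10, with C3 at 0.05 and the chaperone gene Calr at 0.07. Genes of the erythroblastic island had a median of 0.11 over 6, with Icam4 at 0.18 and Itga4 at 0.15. Genes listed for macrophage activation had a median of 0.00 over the 9 of 12 that were bright enough to test. The brightest of these were Arg1, with a log2 fold change of 0.46 (standard error 0.21), and Ccl2, with -0.07. In whole liver the cells behind these signals cannot be told apart, so neither value is a measure of activation.

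Markers of other cells in the liver were, like the macrophage genes, mostly lowest on CD replicate 1. Of 60 tested markers of monocytes, granulocytes, dendritic cells, erythroid cells, hepatoblasts, sinusoidal endothelium, megakaryocytes and early B cells, 53 were higher in the replicate 2 array of the CD group than in its replicate 1 array. Alb, the albumin gene of hepatocytes, had levels of 8.14 and 9.06 for CD and 8.53 and 8.54 for HFD, and Mpo, a granule enzyme of granulocytes, had 5.43 and 5.99 for CD and 5.65 and 5.63 for HFD, so that for both the HFD arrays lay between the CD arrays. The median difference between these arrays was 0.50 for hepatoblast markers, all 10 of which were higher on replicate 2. It was 0.47 for erythroid, 0.68 for granulocyte, 0.42 for monocyte and 0.85 for megakaryocyte markers, beside 0.44 for the macrophage genes. Smaller medians were found for sinusoidal endothelial (0.27), early B cell (0.10) and dendritic cell (0.06) markers. Between the diets, 0 of the 60 markers had an unadjusted limma p under 0.05, and the medians ran from -0.04 for dendritic cell to 0.20 for megakaryocyte markers. Of the brightest markers, the erythroid genes Alas2 and Slc4a1 had log2 fold changes of 0.30 and 0.27, the platelet chemokine genes Pf4 and Ppbp 0.18 and 0.23, and the endothelial genes Stab2 and Gpr182 0.22 and 0.11. The values were -0.04 and -0.08 for Plac8 and F13a1 of monocytes, -0.07 and 0.05 for Mpo and S100a9 of granulocytes, -0.04 and 0.17 for Siglech and Zbtb46 of dendritic cells, -0.07 and -0.01 for Alb and Afp of hepatoblasts, and 0.00 and 0.05 for Cd79b and Vpreb1 of early B cells. The part of the other cell types in the levels of the macrophage genes was not tested.

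**Figure D4:**
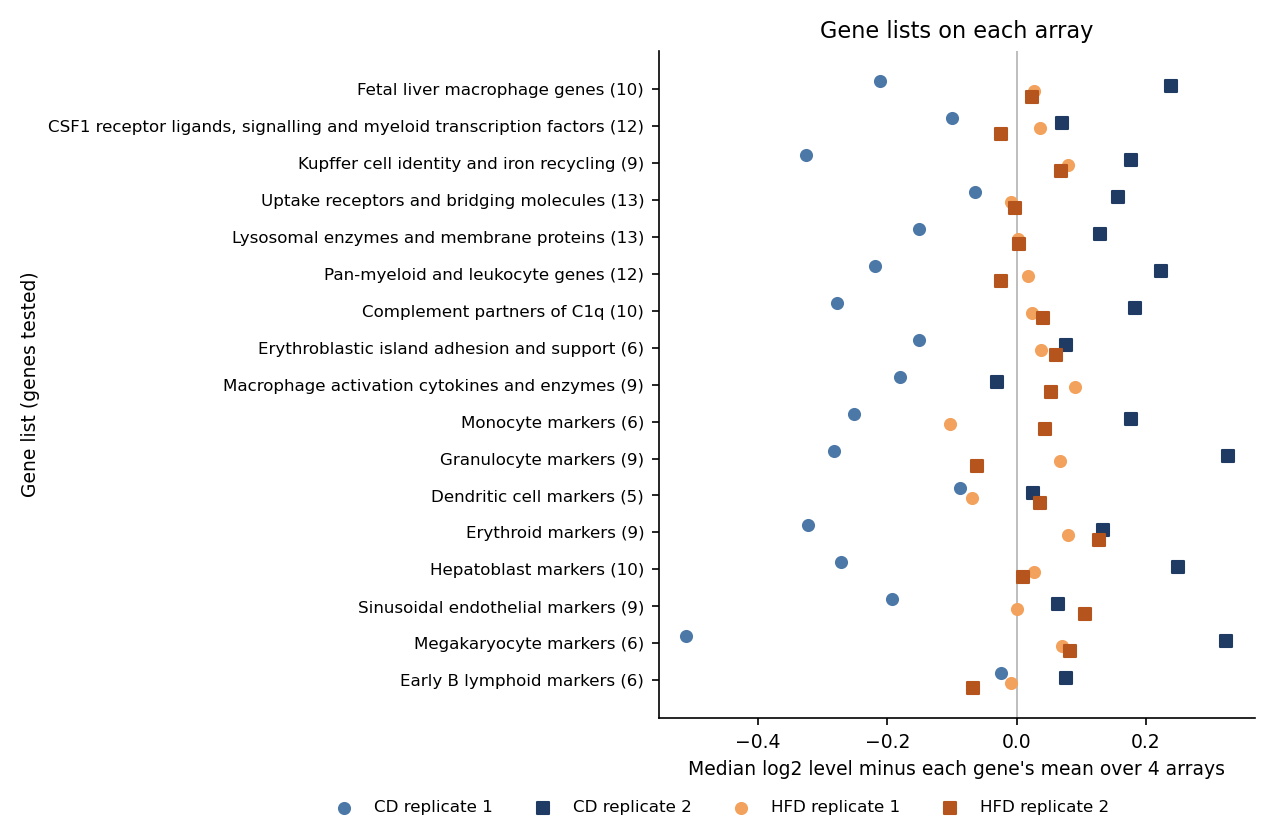
Median log2 level of each gene list on the 4 arrays, after subtracting from each gene its mean over the arrays, with the number of genes tested in brackets. For the macrophage genes the medians are -0.21 and 0.24 for CD and 0.03 and 0.02 for HFD, and CD replicate 1 is also the lowest array for every other list drawn but the early B cell markers. The trophoblast and decidua list is not drawn.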

How the data were processed

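Fetal livers of CD-fed and HFD-fed dams were measured on 4 arrays, grouped by the sample labels. The authors hybridized Cy3-labeled cRNA and read it with Agilent Feature Extraction 11.0.1.1, and deposited a background-subtracted, spatially detrended intensity per spot without scaling between arrays. They also deposited flags (scores of 0 or 1) and a table of normalized signal for 41471 probes, which is the intensity of each array divided by 1 constant. All arrays lay on 1 slide, read in 1 scan. Median intensities ran from 70.2 to 120.5, and 65.4% to 70.0% of spots were well above background.

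From the intensities, log2 values of unflagged spots were averaged per probe and the 75th percentile of each array was subtracted. As the study describes, a probe had to reach the 20th percentile of all 4 arrays. It was also dropped with a coefficient of variation over 50% within each group, computed from linear values; the study names the log scale for this value, which was run as an alternative. This left 41332 probes. They were fitted with limma 3.58.1 in R 4.3.3 (HFD minus CD, no covariates, two-sided, Benjamini-Hochberg over all probes), and the fit was tested on simulated data. Each gene was represented by its brightest tested probe. Transcripts matched RefSeq (GRCm38.p6) for 32994 of 56605 probes, and Clec7a and Prl2c2 among the listed genes had none. The array was designed on another build, so no probe coordinates are given. Lists and members were chosen with earlier results of these data known. The genes named are the 10 members, the 2 brightest of each list and any listed gene with p under 0.05. Spic, Cd163, Vsig4, Tpbpa, Prl7a1, Prl8a2 and Syna were named outside this rule, after their values were seen. Python 3.11.15 prepared the values.

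Alternatives were quantile normalization, normexp (offset 50, on median spot brightness, as the mean was not among the columns), the deposited table, other filters, the methods' t-test, the mean over probes, the replicate number as a block and leaving out each array. Normalization alternatives kept the same probes. Same-numbered arrays did not deviate together (correlation -0.10 over 41332 probes).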

Additional observations from a re-analysis of the deposited data

How the results depend on the processing

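Under every alternative with all 4 arrays and a test, 0 of the 10 macrophage genes passed an unadjusted p of 0.05, and their median log2 fold change lay between 0.05 and 0.08, also with the mean over the probes of a gene, for which no test was run. The number of genes with both HFD arrays below both CD arrays was 2 with quantile normalization in place of 0. Leaving out 1 array at a time, the median ranged from -0.20 to 0.16, the genes under p 0.05 from 0 to 3, those with the HFD arrays above CD from 3 to 10 and those below from 0 to 7. The replicate number as a block left 0 of the 10 genes under 0.05 and called 177 probes higher and 258 lower past both cutoffs; the numbers are not known to pair the samples.

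Over all probes, 121 were higher and 197 lower at an unadjusted limma p under 0.05 and 2-fold, 1382 passed the first cutoff alone, and 0 passed after adjustment. These counts became 11 and 22 with normexp, 385 and 460 without the percentile filter, 41 and 56 by the methods' t-test, and 21 and 25 with Welch's correction, and 71 were higher with a filter on probes well above background. Leaving out an array gave 190 to 842 higher and 381 to 466 lower. Among the companion genes, 2 of 149 had p under 0.05, which became 7 with normexp and ranged from 1 to 45 with an array left out. At the main setting the 2 genes were Psg17 and Pappa2 of the trophoblast and decidua list. With normexp 2 of the 7 were on that list. Of all genes, 2.84% had p under 0.05 at the main setting and 2.11% with normexp. Without a CD array the share of all genes was taken in 1 direction only, so it does not match the companion counts of those fits. Of the 17 companion medians, 15 were below 0 without CD replicate 1 and 15 above 0 without CD replicate 2. Alb, at -0.07 with all arrays, had a log2 fold change of 0.39 without CD replicate 2 and of -0.53 without CD replicate 1. A block for slide or scan was not possible, since all arrays shared them. The causes were not tested.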
